A study of Arabidopsis thaliana with 10 samples.

Results

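The UDP-glycosyltransferases (UGTs) form a large enzyme family of plants. The family was followed here across roots of Arabidopsis thaliana that differed in sulfate supply and in the genes SDI1 and SDI2. Members were the probe sets of the ATH1 array that list a single gene whose symbol reads UGT, number, letter, number, without UGT74B1 and UGT74C1, which serve glucosinolate synthesis. This gave 46 probe sets for 46 genes, of 22197 probe sets tested, in 11 families by number. The counts per family were 9 in UGT71, 4 in UGT72, 7 in UGT73, 2 in UGT74, 8 in UGT76, 3 in UGT78, 5 in UGT84 and 5 in UGT85, with 1 member each in UGT80, UGT87 and UGT88. The RefSeq gene table of assembly TAIR10.1 holds 58 genes with a symbol of this form. A further 3 probe sets that list a UGT beside another gene were left out, since their signal cannot be given to 1 gene.

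A UGT moves a sugar from a UDP-sugar, most often UDP-glucose, onto a small acceptor molecule. The product is usually more soluble, less reactive and easier to store in the vacuole, and beta-glucosidases can release the acceptor again. Known acceptors in Arabidopsis include monolignols and other phenylpropanoids, flavonols and anthocyanins, the hormones auxin, cytokinin, abscisic acid and salicylic acid, sterols, and foreign compounds. The number in the name groups enzymes by sequence similarity and the letter marks a subfamily, so members of a number share ancestry more than they share a substrate.

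The 5 groups held 2 arrays each, from roots of plants grown for 10 days on agar medium. They were the double knockout of SDI1 and SDI2 (KO, lines 1 and 4) on 15 µM sulfate (KO -S), the wild type Columbia (Col) on 15 µM sulfate (Col -S), KO on 1500 µM sulfate (KO +S), plants that overexpress SDI1 (OX, lines 6 and 12) on 1500 µM sulfate (OX +S), and Col on 1500 µM sulfate (Col +S). The magnesium level was held constant between the media. SDI1 and SDI2 encode proteins known for transcripts that accumulate under sulfur shortage and, for SDI1, for restraining glucosinolate synthesis. Within each KO or OX group the arrays are of different plant lines, and the same KO lines were used at both sulfate levels. No source used here names the promoter of the overexpression construct or says whether the Col arrays came from separate cultures, so a p-value measures the spread between these arrays, part of which may be technical.

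All levels are log2 values whose zero point is unknown, so differences are given only within a gene. Differences are log2 values ± SE of a linear model over all 10 arrays, and a member is said to be called when its limma p-value, adjusted by Benjamini-Hochberg over 22197 probe sets, lay under 0.05. A member was counted as above background on an array when it exceeded the 95th percentile of 22 bacterial control probe sets there, and that level ran from -0.58 on KO -S line 1 to 0.37 on Col -S 2. SDI2 read 0.31 and -1.52 in KO -S and 5.65 and 5.47 in Col -S, so the labels of the low sulfate arrays were borne out for this gene, and it read -0.35 and -1.16 in KO +S and 1.83 and 1.57 in Col +S. The SDI2 levels of both line 4 arrays lay under background and those of both line 1 arrays above it. A marker or pathway gene was counted as measured only where a probe set with values lists it alone. The annotation used lists no gene for 8794 of 22810 probe sets. Of 9 root markers, 3 were measured in this sense (PYK10, EXPA7 and EXPA18), all above background on 10 arrays. Of 7 leaf markers, 3 were measured: RCA and LHCB4.1 were above background on 10 arrays and PSAE1 on 9. The root marker mean was 5.07 to 5.24 in KO -S, 5.55 to 5.67 in Col -S, 5.07 on both arrays of KO +S, 5.02 to 5.18 in OX +S and 4.99 to 5.22 in Col +S. The leaf marker mean was 1.31 to 1.34 in KO -S, 1.48 to 1.51 in Col -S, 1.88 to 1.98 in KO +S, 1.78 to 1.92 in OX +S and 2.17 to 2.41 in Col +S, and the part of shoot transcripts in the results below was not tested. In whole roots, fewer cells of a type and less RNA per cell cannot be told apart.

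Of the 46 members, 21 were above background on all 10 arrays, 9 on some arrays and 16 on none. By family, the members above background throughout were 6 of 9 in UGT71, 3 of 4 in UGT72, 1 of 7 in UGT73, 2 of 2 in UGT74, 3 of 8 in UGT76, 2 of 3 in UGT78, 1 of 5 in UGT84 and 1 of 5 in UGT85, with UGT80B1 and UGT88A1 above it and UGT87A2 on 3 arrays. Members never above background were UGT71B1, UGT71B8, UGT73C1, UGT73C7, UGT76E1, UGT76E2, UGT76E11, UGT76E12, UGT78D1, UGT84A1, UGT84A3, UGT84B1, UGT84B2, UGT85A3, UGT85A4 and UGT85A5. A change in such a member was not measurable as a fold on these arrays. In all, 13 members were called in at least 1 comparison (28.3%, against 12.9% of all probe sets), 7 of them above background throughout and 1, UGT84A1, never above it. Changes were modest: only UGT73B1, UGT73B4 and UGT87A2 differed at least 2-fold in any comparison of 2 groups.

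**Figure D1:**
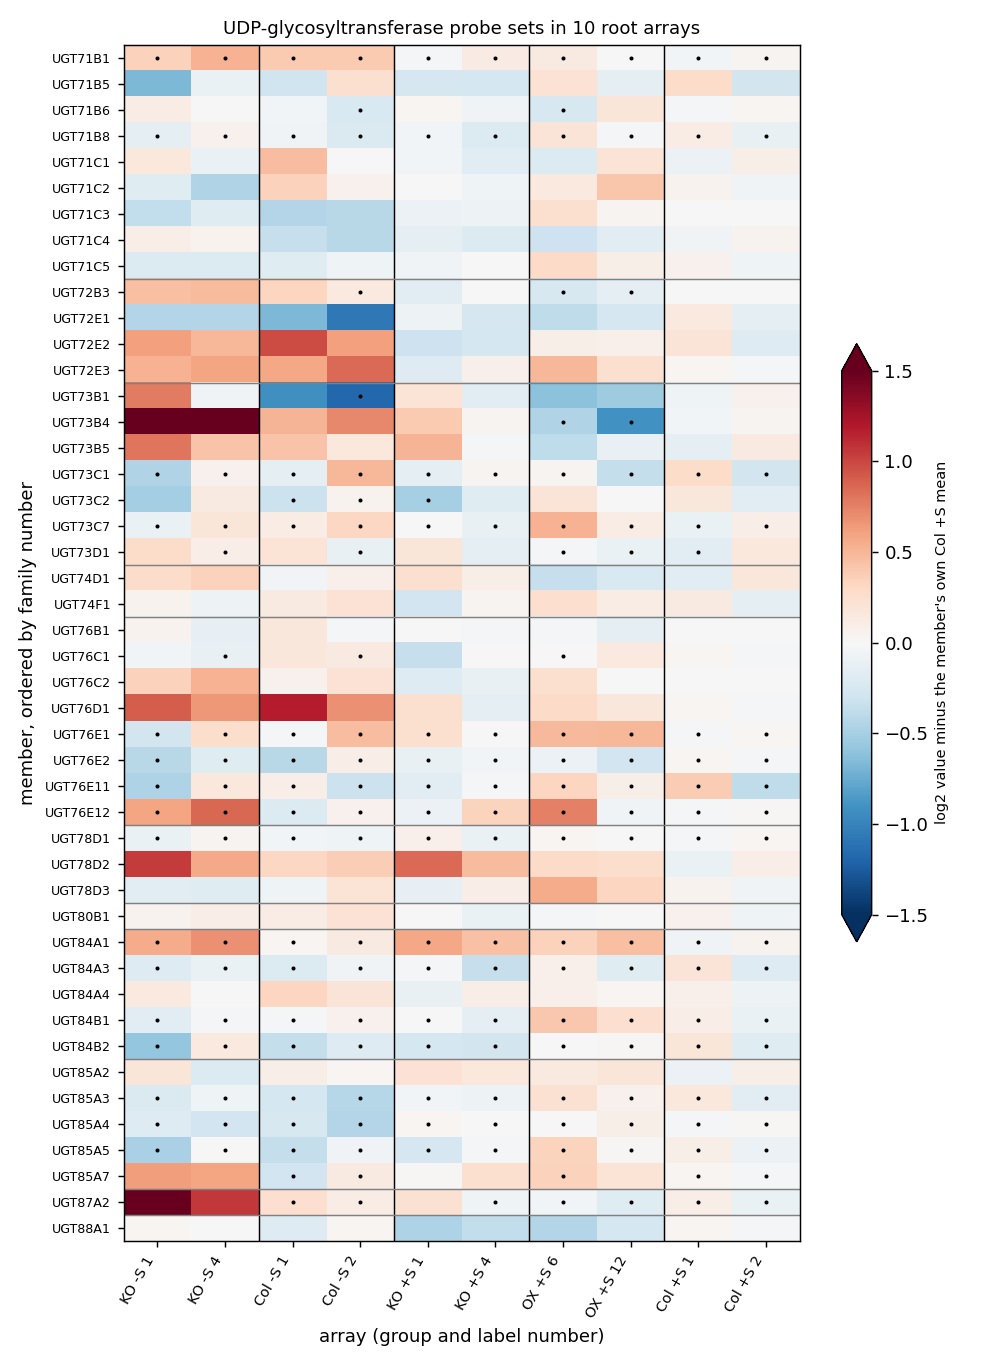
Log2 value of each of the 46 members (rows, by family number) on each of the 10 arrays (columns), minus the member's own mean in Col +S; red is higher, blue is lower, colours end at 1.5 in either direction, and a black dot marks a value not above that array's background. UGT73B4 and UGT87A2 are reddest in the KO -S columns, UGT73B1 is bluest in the Col -S columns, and 16 rows are dotted throughout.

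The first comparison set KO against Col at low sulfate. UGT73B1, UGT73B4, UGT87A2, UGT85A7 and UGT84A1 were called higher in KO, and none was called lower. UGT73B1 glucosylates abscisic acid and flavonoids in vitro, and UGT73B4 belongs to a stress-responsive pair with UGT73B5. UGT87A2 has a known part in flowering time and stress tolerance. In all, 5 of 46 members were called higher (10.9%), against 2.85% of all probe sets called, 1.73% higher and 1.12% lower. The root markers EXPA7, EXPA18 and PYK10 stood at -0.64 ± 0.14, -0.44 ± 0.15 and -0.29 ± 0.15 in the same comparison (limma adjusted p = 0.051, 0.18 and 0.35), and their part in the result was not tested.

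UGT73B1 read 2.07 and 1.24 in KO -S, against 0.37 and 0.11 in Col -S. The groups did not overlap, and KO line 1 stood above line 4. The difference was 1.42 ± 0.24, or 2.67-fold (limma adjusted p = 0.018), with 1 of the Col -S arrays not above background. UGT87A2 read 0.84 and 0.39 in KO -S, against -0.42 and -0.56 in Col -S. Both Col -S values lay under background, so the difference is given as at least 1.48-fold (fitted value 1.1 ± 0.17, limma adjusted p = 0.01). UGT73B4 read 1.57 on both KO -S arrays, against 0.59 and 0.80 in Col -S. Its groups were well apart, by 0.88 ± 0.17 or 1.84-fold (limma adjusted p = 0.03). UGT85A7 read 0.15 and 0.12 in KO -S, against -0.76 and -0.34 in Col -S, where both arrays lay under background. The bound between group means was 1.07-fold (fitted value 0.69 ± 0.15, limma adjusted p = 0.046). The background of Col -S 2, at 0.37, exceeded both KO -S values, so no minimum fold is established. UGT84A1, which forms glucose esters of hydroxycinnamic acids, was the remaining call (limma adjusted p = 0.033), with KO -S at -0.66 and -0.53 and Col -S at -1.19 and -1.08. All of these values lay under background, so no fold is given.

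UGT73B5, the gene next to UGT73B4, stood at 0.33 ± 0.21 in the same comparison and was not called (limma adjusted p = 0.45). Of the members above background throughout, UGT71C4 was closest to the threshold at 0.46 ± 0.10 (limma adjusted p = 0.05, not called before rounding), and it was called in 4 of 9 alternative fits that kept all arrays of the comparison (adjusted p from 0.02 to 0.23 over the 9). UGT71C2 had the lowest difference at -0.52 ± 0.14 (limma adjusted p = 0.1). The median over the 46 members was 0.00, beside -0.04 over all probe sets, and 23 members had a positive difference.

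Without KO -S line 1 the calls of UGT73B1 (1.00, limma adjusted p = 0.05, not called before rounding) and UGT87A2 (0.87, 0.061) were lost, and without Col -S 2 they were lost too (1.29, 0.12, and 1.03, 0.081). The calls of UGT73B4, UGT84A1 and UGT85A7 were lost in 6, 8 and 9 of the 10 fits that left out 1 array, with adjusted p up to 0.14, 0.16 and 0.19, and no member was called without KO -S line 1 or with only the 4 arrays compared; a block for KO line left 3 calls, UGT84A1 (0.06) and UGT85A7 (0.073) being lost.

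**Figure D2:**
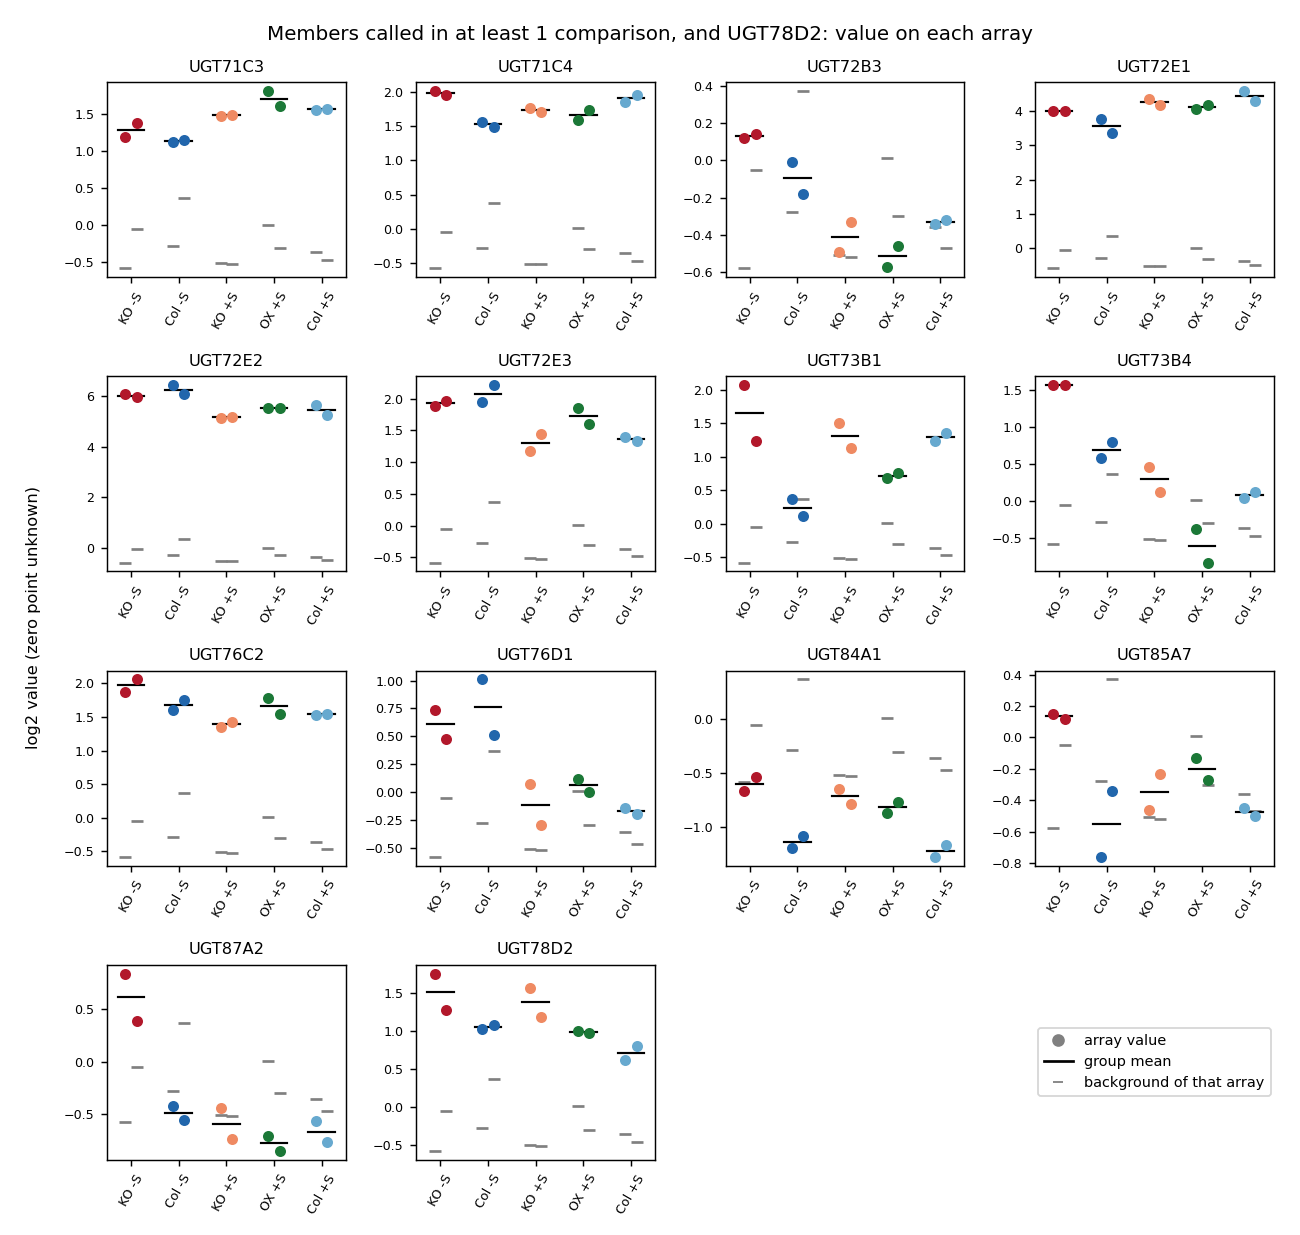
Log2 value on each array (points), group mean (black line) and that array's background level (grey tick) for the 13 called members and UGT78D2, with the groups along the horizontal axis and a separate vertical scale per gene. UGT73B4 and UGT87A2 are highest in KO -S, UGT73B1 is lowest in Col -S, and all UGT84A1 points lie under their background ticks.

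The second comparison asked what low sulfate does in the wild type. Enzymes of monolignol conjugation moved in both directions: UGT72E2 and UGT72E3 rose while UGT72E1 fell. UGT72E2 and UGT72E3 glucosylate coniferyl and sinapyl alcohol, the lignin precursors, and UGT72E1 also acts on the corresponding aldehydes. UGT76D1, which glucosylates dihydroxybenzoic acids derived from salicylic acid, rose, and UGT73B1, UGT71C3 and UGT71C4 fell. In all, 3 members rose (6.52%) and 4 fell (8.7%), against 4.44% and 5% of all probe sets (9.44% together). The leaf markers RCA, LHCB4.1 and PSAE1 fell in this comparison, by 0.93 ± 0.17, 0.69 ± 0.11 and 0.77 ± 0.18, and their part in the result was not tested.

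UGT72E2 read 6.44 and 6.08 in Col -S, against 5.66 and 5.27 in Col +S. That was a rise of 0.80 ± 0.16, or 1.74-fold (limma adjusted p = 0.013). UGT72E3 read 1.94 and 2.21 in Col -S, against 1.39 and 1.34 in Col +S, a rise of 0.71 ± 0.14 (limma adjusted p = 0.014). UGT72E1 went the other way, with 3.75 and 3.35 in Col -S and 4.57 and 4.28 in Col +S. It fell by 0.87 ± 0.15, which leaves 0.546 of the Col +S level (limma adjusted p = 0.0087). None of these groups overlapped.

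UGT76D1 read 1.01 and 0.51 in Col -S, against -0.14 and -0.20 in Col +S, a rise of 0.93 ± 0.18 or 1.9-fold (limma adjusted p = 0.015). UGT73B1 read 0.37 and 0.11 in Col -S, against 1.23 and 1.35 in Col +S. It fell by 1.05 ± 0.24, to 0.482 of the Col +S level, with Col -S near background (limma adjusted p = 0.028). UGT71C3, known for glucosylating methyl salicylate, read 1.12 and 1.15 in Col -S and 1.56 and 1.57 in Col +S, a fall of 0.43 ± 0.11 (limma adjusted p = 0.038). Its neighbour UGT71C4 read 1.56 and 1.49 in Col -S and 1.85 and 1.96 in Col +S, a fall of 0.38 ± 0.10 (limma adjusted p = 0.049). These 2 were small but separate in every array.

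Leaving out 1 of the 4 Col arrays ended most of these calls: UGT72E1 was lost without Col +S 1 (adjusted p = 0.08), UGT72E2 without Col -S 1 (0.057) or Col +S 2 (0.089), UGT72E3 without Col -S 2 (0.086), Col +S 1 (0.079) or Col +S 2 (0.085), UGT76D1 without Col -S 1 (0.057), Col +S 1 (0.084) or Col +S 2 (0.086), and UGT73B1 without any 1 of the 4 (0.051 to 0.15). UGT71C3 and UGT71C4 were lost in 6 and 8 of the 10 such fits (adjusted p up to 0.17 and 0.23) and with a block for KO line (0.054 and 0.076), and the root hair expansins EXPA7 and EXPA18 rose in the same comparison by 0.76 ± 0.14 and 0.77 ± 0.15, whose part in these results was not tested.

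The third comparison followed low sulfate in the double knockout. Here 6 members rose and none fell: UGT73B4, UGT87A2, UGT72E2, UGT72E3, UGT76C2 and UGT72B3. UGT76C2 attaches glucose to a ring nitrogen of cytokinins, which inactivates the hormone. The share called higher was 13%, against 2.92% of all probe sets, and 3.5% of all probe sets were called lower (6.42% together). LHCB4.1 fell here by 0.67 ± 0.11, and its part in the result was not tested.

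UGT73B4 read 1.57 on both KO -S arrays, against 0.47 and 0.12 in KO +S. The rise was 1.28 ± 0.17, or 2.42-fold (limma adjusted p = 0.0024). UGT87A2 read 0.84 and 0.39 in KO -S and -0.44 and -0.74 in KO +S, where line 4 lay under background. It rose by 1.2 ± 0.17, or 2.3-fold (limma adjusted p = 0.0034). These calls held in all 10 fits that left out 1 array, with adjusted p up to 0.022 and 0.029.

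UGT72E2 read 6.08 and 5.96 in KO -S, against 5.16 and 5.20 in KO +S, a rise of 0.84 ± 0.16 or 1.79-fold (limma adjusted p = 0.013). UGT72E3 read 1.89 and 1.96 in KO -S, against 1.17 and 1.44 in KO +S, a rise of 0.62 ± 0.14 (limma adjusted p = 0.032). These 2 members were called in both genotypes in the fit reported, in the same direction, and their interactions were 0.04 ± 0.22 and -0.09 ± 0.20 (limma adjusted p = 0.98 and 0.94). UGT76C2 read 1.88 and 2.06 in KO -S and 1.35 and 1.43 in KO +S, a rise of 0.58 ± 0.12 (limma adjusted p = 0.022). UGT72B3, of the subfamily that also holds a chlorophenol-conjugating enzyme, read 0.12 and 0.14 in KO -S and -0.49 and -0.33 in KO +S, a rise of 0.54 ± 0.11 (limma adjusted p = 0.017). UGT73B4 read 0.59 and 0.80 in Col -S, against 0.04 and 0.12 in Col +S, a difference of 0.62 ± 0.17 that just missed the threshold (limma adjusted p = 0.056) and passed it in 4 of 9 alternative fits that kept all arrays of the comparison (0.026 to 0.1 over the 9). UGT76D1, called in Col, stood at 0.72 ± 0.18 in KO (limma adjusted p = 0.055, and 0.041 with a block for KO line).

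The other calls were lost in fits that left out 1 of the 4 KO arrays, though the changes stayed positive. With 1 array left out they ran from 0.78 to 0.90 for UGT72E2 and from 0.49 to 0.75 for UGT72E3. For UGT72B3 they ran from 0.46 to 0.62 and for UGT76C2 from 0.49 to 0.67. Such a fit has fewer arrays, so a lost call need not mean a smaller change. UGT72E2 was lost without any 1 of the 4 (adjusted p from 0.058 to 0.098), UGT72E3 without any of these (0.052 to 0.25) or either Col +S array (0.057 each), UGT72B3 without KO -S line 1 (0.072), KO -S line 4 (0.1) or KO +S line 1 (0.17), and UGT76C2 without KO -S line 4 (0.16), KO +S line 1 (0.17) or KO +S line 4 (0.091).

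**Figure D3:**
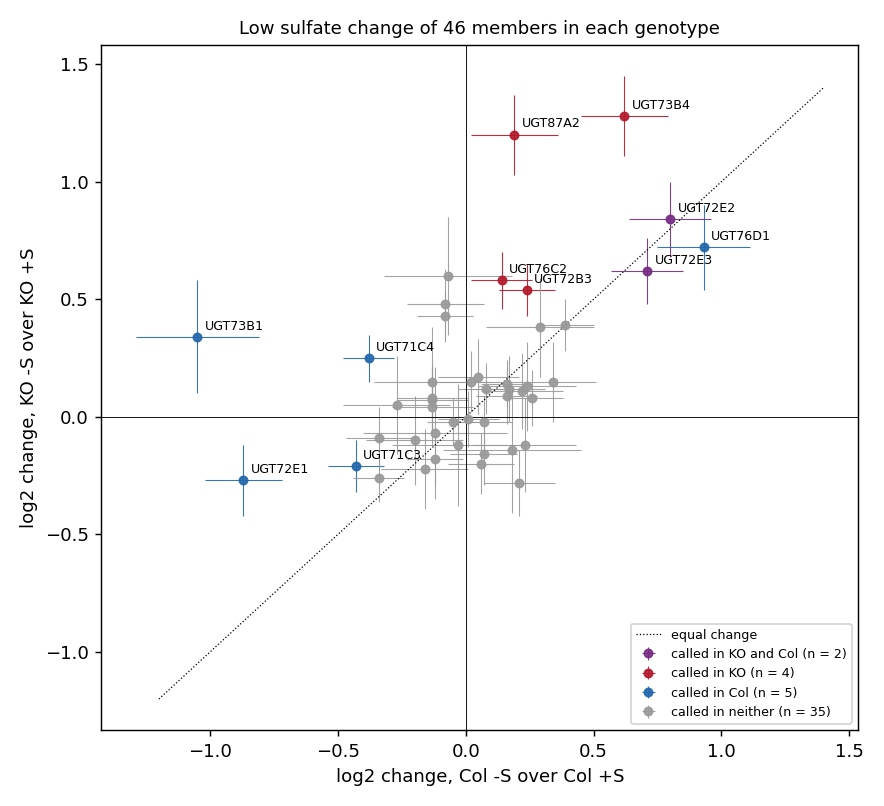
Low sulfate change of each member in KO (vertical axis, log2 KO -S over KO +S) against that in Col (horizontal axis, log2 Col -S over Col +S), with bars of 1 SE and a dotted line of equal change. UGT72E2 and UGT72E3 lie near the dotted line at 0.62 to 0.84 on both axes, UGT87A2 and UGT73B4 lie above it, and UGT73B1 is at -1.05 in Col and 0.34 in KO.

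The sulfate responses of the genotypes were measured on separate arrays. Across the 46 members the Col and KO changes correlated at 0.50, beside 0.58 across all probe sets. The changes had the same sign for 29 of the 46 members and for 14118 of all 22197 probe sets, a similar share. Among the 21 members above background throughout the correlation was 0.69. The value for all probe sets under that filter was not computed, so 0.69 cannot be set against 0.58. These are descriptions over genes, which are not independent and share the arrays' normalization.

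The interaction, the low sulfate change in KO minus that in Col, tests whether the responses differ. No member passed it (lowest limma adjusted p = 0.13, for UGT71C4), against 0.748% of all probe sets (0.613% higher). An unadjusted limma p under 0.05 was found for 9 members (19.6%), against 9.85% of all probe sets. For 8 of these 9 the change was more positive in KO. Of the 166 probe sets called over the whole array, 136 also lay on that side. The split of all probe sets at the unadjusted level was not computed. UGT73B1 had an interaction of 1.39 ± 0.34 (limma adjusted p = 0.17), made of 0.34 ± 0.24 in KO and -1.05 ± 0.24 in Col. This interaction was not called in 8 of 9 alternative fits that kept all arrays of the comparison (limma adjusted p from 0.03 to 0.25 over the 9). The call came with a block for KO line, a fit chosen after seeing the data. With 1 array left out the value ran from 0.97 to 1.81, the highest being without KO -S line 4. UGT87A2 had 1.01 ± 0.24 (limma adjusted p = 0.15), from 1.2 ± 0.17 in KO and 0.19 ± 0.17 in Col, where all its values lay under background. UGT71C4 had 0.63 ± 0.14, from 0.25 ± 0.10 in KO and -0.38 ± 0.10 in Col. UGT73B4 had 0.66 ± 0.24 (limma adjusted p = 0.4), from 1.28 ± 0.17 in KO and 0.62 ± 0.17 in Col. For the left-out glucosinolate enzymes the interaction was called, at 1.69 ± 0.19 for UGT74B1 and 4.03 ± 0.23 for UGT74C1 (limma adjusted p = 0.0038 and 4.1e-05), both of which fell in Col and rose in KO.

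The fourth comparison set KO against Col at full sulfate. No member was called by limma (0.0225% of all probe sets were), and 3 had an unadjusted p under 0.05, or 6.52%, against 5.56% of all probe sets. UGT78D2, which adds glucose to the 3 position of flavonols and anthocyanidins, had the largest difference. It read 1.57 and 1.19 in KO +S, against 0.62 and 0.81 in Col +S, a difference of 0.66 ± 0.17 (limma adjusted p = 0.49). Its groups did not overlap, nor did they at low sulfate, where it read 1.76 and 1.28 in KO -S and 1.03 and 1.08 in Col -S (0.47 ± 0.17, limma adjusted p = 0.2). In both KO groups line 1 was the higher. UGT84A1 had all its values under background (limma adjusted p = 0.27), and UGT88A1 stood at -0.42 ± 0.11 (limma adjusted p = 0.5). The differences of the other members ranged from -0.33 to 0.24.

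The fifth comparison set SDI1 overexpression against Col at full sulfate. No member was called by limma here either, while 0.649% of all probe sets were (0.405% lower). An unadjusted limma p under 0.05 was found for 9 members (19.6%, against 9.01% of all probe sets), 5 higher and 4 lower. Among the 5 higher, UGT76E1, UGT84A1 and UGT84B1 lay under background on all arrays, so their changes were not measurable as a fold. UGT73B4 had the lowest adjusted p (0.16). It read -0.37 and -0.83 in OX +S, both under background, against 0.04 and 0.12 in Col +S. The bound between group means was 1.17-fold lower in OX +S (fitted value -0.68 ± 0.17). This bound leaves out the spread between arrays. UGT73B1 read 0.68 and 0.76 in OX +S, against 1.23 and 1.35 in Col +S, a difference of -0.57 ± 0.24 (limma adjusted p = 0.53). UGT78D3, which adds arabinose to flavonols, read 1.67 and 1.44 in OX +S and 1.17 and 1.06 in Col +S, a difference of 0.45 ± 0.13 (limma adjusted p = 0.28). UGT72E3 stood at 0.37 ± 0.14 and UGT88A1 at -0.36 ± 0.11 (limma adjusted p = 0.45 and 0.31). No member was called in this comparison, or in KO against Col at full sulfate, by any alternative fit run.

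Many genes had groups that did not overlap. No background filter was applied to these counts, of members or of all probe sets. UGT84A1, never above background, is among the members wholly above Col in KO -S, KO +S and OX +S. In OX +S, 13 members lay wholly above and 9 wholly below Col +S (28.3% and 19.6%), against 21.7% and 15.9% of all probe sets. In KO -S, 15 lay wholly above and 8 wholly below Col -S (32.6% and 17.4%), against 19.2% and 25.4%. In KO +S, 4 lay wholly above and 9 wholly below Col +S (8.7% and 19.6%), against 17.3% and 24.5%. At low sulfate, 14 lay wholly above and 7 wholly below full sulfate in KO (30.4% and 15.2%), against 25% and 26.9%, and 15 lay above and 10 below in Col (32.6% and 21.7%), against 25.4% and 24.8%.

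**Figure D4:**
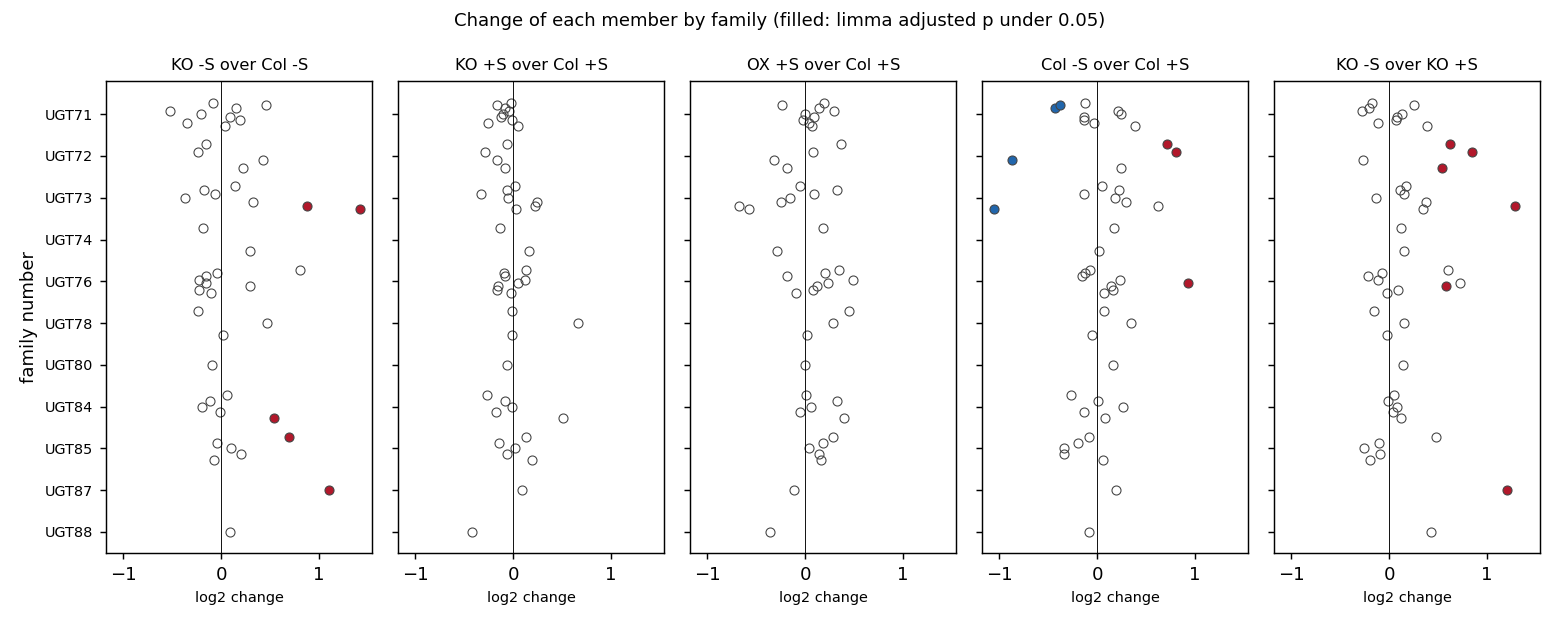
Log2 change of each member (points) by family number (vertical axis) in the 5 comparisons of 2 groups (panels, with the groups in the title); filled points have a limma adjusted p under 0.05, red for higher and blue for lower. Filled points are absent from both panels of KO and OX against Col at full sulfate, and all filled points of KO -S over Col -S and of KO -S over KO +S lie to the right of 0.

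By role, the monolignol enzymes belong to UGT72. All 4 UGT72 members were measured on at least 7 arrays, and their changes at low sulfate ran from -0.27 to 0.84 in KO and from -0.87 to 0.80 in Col, with UGT72E1 the lowest in both. In UGT84, which holds hydroxycinnamate and auxin enzymes, UGT84A4 was the sole member above background, at 2.28 and 2.13 in KO -S, 2.46 and 2.33 in Col -S, 2.02 and 2.23 in KO +S, 2.21 and 2.17 in OX +S, and 2.21 and 2.06 in Col +S. It stood at 0.08 ± 0.12 for low sulfate in KO and 0.26 ± 0.12 in Col, and was not called.

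Among hormone enzymes, UGT71C5, which glucosylates abscisic acid, stood at -0.18 ± 0.11 for low sulfate in KO and -0.12 ± 0.11 in Col, not called. UGT71B6, another abscisic acid enzyme, was above background on 8 arrays and ranged from -0.20 to 0.22. The cytokinin enzyme UGT76C1, adjacent to UGT76C2, stood at 0.09 ± 0.12 in KO and 0.16 ± 0.12 in Col, and was not called in any comparison. UGT76B1, which conjugates salicylic acid, N-hydroxypipecolic acid and isoleucic acid, stayed between 4.43 and 4.75 over the 10 arrays. UGT74F1, which forms the glucoside of salicylic acid, ranged from -0.09 to 0.45, and UGT74D1, which acts on auxins, from 1.68 in OX +S line 6 to 2.37 in KO -S line 4. Neither was called.

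The flavonoid enzymes of UGT78 were not called in any comparison, and the flavonol rhamnosyltransferase UGT78D1 was under background throughout. UGT80B1, a sterol glucosyltransferase, stayed between 0.46 and 0.78 on all arrays. UGT71C1, which is active on lignans and other phenolics, read 5.43 to 6.10, and its low sulfate differences were 0.13 ± 0.19 in KO and 0.24 ± 0.19 in Col. UGT85A2 read 2.58 to 3 and was not called.

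Many members lie side by side in the genome. In the RefSeq gene order 24 of the 46 lie in 10 runs of directly adjacent protein-coding members, the longest with 4 (UGT85A7, UGT85A2, UGT85A5 and UGT85A3 on chromosome 1). Calls did not extend over a whole run in any of the 10, but several runs hold members never above background, whose changes were not measurable as a fold. In the run of 4, UGT85A7 was called in KO against Col at low sulfate, and its neighbours stood at -0.07, -0.04 and 0.20 in the order above. Of these neighbours, UGT85A5 and UGT85A3 were under background on all arrays. UGT73B4 and UGT73B5 on chromosome 2 had low sulfate changes in KO of 1.28 ± 0.17 and 0.38 ± 0.21, a difference between genes that was not tested. In the run of UGT71C5, UGT71C4 and UGT71C3 on chromosome 1, the changes at low sulfate in Col were -0.12, -0.38 and -0.43. Similar neighbours may share hybridization, and this was not tested here.

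Genes that supply or reverse glycosylation were described from lists of pathway genes. As for the markers, a gene that no probe set lists alone was not counted as measured, though the array may hold a probe set for it. Of 24 genes of UDP-sugar supply only USP, a UDP-sugar pyrophosphorylase, was measured, and it stood at 0.36 ± 0.10 at low sulfate in KO (limma adjusted p = 0.066) and rose by 0.55 ± 0.10 in Col (limma adjusted p = 0.0087). Of 19 phenylpropanoid genes 3 were measured. HCT, an acyltransferase on the way to monolignols, stood at 0.12 ± 0.09 in KO and rose by 0.45 ± 0.09 in Col (limma adjusted p = 0.018). CCR2 and ALDH2C4 were not called. The interactions of USP and HCT were -0.19 ± 0.14 and -0.33 ± 0.13, neither called (limma adjusted p = 0.72 and 0.46). Of 15 flavonoid genes DFR and BAN were measured, neither called.

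Of 17 measured BGLU genes, 2 rose and 2 fell at low sulfate in KO, and 2 rose and 3 fell in Col. Of all probe sets, 2.92% rose and 3.5% fell in KO, and 4.44% rose and 5% fell in Col. BGLU46, whose product releases monolignols from their glucosides, fell in both, by 1.09 ± 0.16 in KO and by 0.68 ± 0.16 in Col (limma adjusted p = 0.0039 and 0.029). BGLU45, of the same activity, was also called lower in both, but all its values lay under background, so no fold is given. BGLU28 was above background on 4 arrays, with a mean of 8.33 in KO -S, 8.10 in Col -S, -1.23 in KO +S, -1.21 in OX +S and -1.43 in Col +S, and rose in both. BGLU15 rose by 1.52 ± 0.11 in KO and by 1.57 ± 0.11 in Col (limma adjusted p = 7e-05 and 5.5e-05). Of 11 measured tau-class glutathione transferases, another family of conjugating enzymes, 4 rose and none fell in KO, and 3 rose and 1 fell in Col, against the same shares of all probe sets. GSTU20 rose by 3.15 ± 0.15 in KO and fell by 2.20 ± 0.15 in Col (limma adjusted p = 5.5e-06 and 4.7e-05), with a called interaction of 5.35 ± 0.21 (6.2e-06). GSTU27 rose by 1.38 ± 0.10 in KO and by 1.18 ± 0.10 in Col, GSTU25 by 1.56 ± 0.20 and 1.08 ± 0.20, and GSTU22 by 1.01 ± 0.16 and 0.67 ± 0.16 (limma adjusted p from 8.1e-05 to 0.032).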

How the data were processed

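Root RNA of 10 arrays in 5 groups of 2, assigned from the titles, was analysed. What the authors deposited is 1 value for each probe set and array, in log10 units, and background correction, summarization and normalization are not given in the sources used here. The log base was read from spiked controls, which spanned 1.98 units from bioB to cre, against 1.82 expected in log10 and 6.06 in log2. Values were multiplied by the log2 of 10. Of 22810 probe sets, 554 had no value (5 of them controls) and 64 were controls, which left 22197. Platform annotation listed 1 gene for 13513, and symbols were updated through RefSeq (all 46 members matched).

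Group means were estimated for 6 comparisons by lmFit followed by eBayes (limma 3.58.1, R 4.3.3), with a residual df of 5 and a prior df of 3.81. P-values were adjusted by Benjamini-Hochberg, and the steps were tested on simulated data. Where a group's arrays all lay at or under background, a fold is a lower bound against the higher of background and the array's own value. It is taken between group means, leaves out the spread between arrays and assumes the deposited scale. KO arrays of 1 line at both sulfate levels come from that line, per the labels, and their deviations correlated at 0.07; Col arrays share only a number (-0.14). Alternatives were quantile normalization, filters on dim probe sets, variance and weight settings, fewer arrays, replicate blocks, 1 probe set per gene and leaving out each array, where the lone array left is assumed to vary like the other groups. A block for KO line alone and a background filter were chosen after seeing the data. Members and gene lists were chosen with earlier results of these data known. Named were all called members, the probe set of highest mean in each family with at least 3 members, UGT78D2, and up to 4 called genes per list by moderated t, and other members named here were chosen after their values were seen. Protein and promoter sequences were not analysed here. The number of arrays limits the precision.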

Additional observations from a re-analysis of the deposited data

How the results depend on the processing

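Among the named member results recomputed, the sign held under every alternative run except for UGT78D2, which was not called in the fit reported: its low sulfate change in KO was -0.09 without KO -S line 1 and -0.04 without KO +S line 4, in a range from -0.09 to 0.38 with 1 array left out, and its interaction was 0.04 without KO -S line 4, in a range from -0.44 to 0.04. Of 604 recomputed values of single members, 467 kept their side of the threshold, 104 lost a call, 30 gained one and 3 changed sign. The 604 include values of results not called in the fit reported, which had no call to lose. The share of calls lost is therefore larger than 104 of 604. The number of members called in KO against Col at low sulfate, 5 in the fit reported, was 0 with only the arrays compared, 1 with array weights, 2 with a replicate block for KO line and Col number, 3 with the replicate block for KO line only, and 0 to 4 when 1 array was left out. The count of 7 for low sulfate in Col was 2 with only the arrays compared and 1 to 8 with 1 array left out. The count of 6 for low sulfate in KO was 3 with only the arrays compared and 2 to 9 with 1 array left out. The interaction, with 0, had 1 (UGT73B1) with the replicate block for KO line only and 0 to 1 with 1 array left out. KO or OX against Col at full sulfate had 0 members called in every fit. The replicate block changed the call of UGT73B4 in KO against Col at low sulfate only when Col numbers were blocked too (adjusted p = 0.075), as it did for UGT72E3 (0.064) and UGT76C2 (0.053) at low sulfate in KO. The filters on dim probe sets and on background kept 30 of the 46 members each. Signal over background leaves 16 members with no measurable fold, UGT84A1 among the calls included, and 2 arrays per group leave most calls within reach of a single array. The cause of these shifts was not tested.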
